A study of Mus musculus with 20 samples.

Results

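Bulk RNA sequencing was used to profile microglia, the macrophages that live within brain tissue, from mice carrying a conditional V600E form of the kinase Braf. The results concern the 4 brainstem-labelled libraries of the stage that the labels call end-stage, out of 20 libraries in the series. They were chosen by their sample records, which give 2 mutant libraries (mice M1376 and M1524) and 2 control libraries (mice M1375 and M1521). Both mutants carried the conditional V600E allele (Braf VE) and the Cx3cr1-CreER driver (CX3 HET). The controls were of 2 kinds. M1375 carried the Braf VE allele without the driver (CX3 WT), and M1521 carried the driver without the allele (Braf WT; CX3 HET). The protocol, which is given for every sample, describes a dose of 37.5 mg per kg 4-hydroxytamoxifen to the mother at embryonic day 9.5, when Cx3cr1 marks progenitors of macrophages, so the recombination was not limited by design to cells that end in the brainstem. The sources used here do not give the age at end-stage, the sex of the mice or the way the cells were purified. The same 4 mice also gave 4 cortex-labelled libraries, which served to estimate the spread and to compare regions.

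BRAF is a kinase of the RAS-RAF-MEK-ERK cascade, and its V600E form signals without an upstream stimulus. The mutation is a recurrent driver of histiocytoses, diseases of the macrophage lineage, some of which involve neurodegeneration of the brainstem and cerebellum. Microglia at rest express a set of homeostatic genes such as P2ry12 and Tmem119, and in disease they can shift towards a state with high Apoe, Axl and Spp1 or towards an interferon-responsive state. The comparison addressed how mutant microglia differed from control microglia in the brainstem-labelled samples at the late stage.

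The mutant libraries held 15584820 and 18014260 counts and the control libraries 14647571 and 19385947. Values below are CPM, a library's counts divided by its TMM-scaled total and multiplied by 1e6, in the order M1376 and M1524 for mutants and M1375 and M1521 for controls. A log2 difference is the mutant minus the control estimate, given with its standard error. Each adjusted p comes from edgeR's quasi-likelihood test with Benjamini-Hochberg adjustment over 15224 genes, and a gene is said to rise or fall only where that value was below 0.05. The p-values measure the spread between libraries within the end-stage groups, each of which held 2, with the cortex-labelled libraries of the same mice included. The 2 libraries of a mouse were treated as independent. The spread within controls also holds the difference between the 2 control genotypes.

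Braf itself was measured at 25.2 and 15.9 CPM in mutants, against 34.2 and 11.1 CPM in controls (log2 difference -0.14 ± 0.57, adjusted p = 0.968). The counts cover both alleles, so they do not check the mutation. Cx3cr1, the fractalkine receptor gene that carries the driver, had 1831 and 2113 CPM in mutants, against 5967 CPM in control M1375 and 2711 CPM in control M1521 (log2 difference -1.14 ± 0.40, adjusted p = 0.389). The library labelled CX3 WT was thus the highest, and the 3 libraries labelled CX3 HET were lower. Xist was counted in all 4 libraries, and Ddx3y, Eif2s3y and Kdm5d were at 0 in all 4. The region label has no such check. The 12 brainstem tissue markers, mainly Hox genes, summed to 0.458 and 0.332 CPM in mutants and to 0.443 and 0.474 CPM in controls. In the cortex-labelled libraries of the same mice they summed to 0.785 and 1.46 CPM in mutants and to 2.91 and 3.57 CPM in controls. These transcripts, of which 7 of 12 were at 0 in all 4 brainstem-labelled libraries, therefore ran against the label, and the libraries are called brainstem-labelled for that reason. The brainstem-labelled sums rested on 8 and 6 counts in mutants and on 7 and 9 counts in controls.

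At the adjusted threshold, 15 of 15224 genes (0.0985%) differed between mutant and control brainstem-labelled microglia, 11 of them higher (0.0723%) and 4 lower (0.0263%). The 11 that rose include genes for receptors, an actin regulator, a Rab activator, a sulfotransferase and transcriptional regulators as well as a predicted gene and a Riken transcript, and the 4 that fell include the homeostatic gene Fcrls and the transcription factor gene Jun. At an unadjusted p below 0.05 there were 840 genes higher (5.52%) and 711 lower (4.67%). DESeq2 called 357 genes (2.34%) on the same libraries, 244 higher (1.6%) and 113 lower (0.742%), with all 15 among them. The tool limma-voom called 10 (0.0657%), 7 higher (0.046%) and 3 lower (0.0197%), with 9 of the 15 among them. Fitted on the 4 brainstem-labelled libraries alone, edgeR called 4 genes, 3 of them among the 15. All 4 were higher in mutants, so no gene that fell kept its call in that fit. Fitted on all 20 libraries by sample record, edgeR called 1, which was lower in mutants. The call count also rested on single mice: edgeR called 1 gene without control M1375, 0 without control M1521 (1574 at an unadjusted p below 0.05), 25 without mutant M1376 and 1 without mutant M1524. All 15 kept their direction in each of these fits. Jun, Angptl7, AC141882.2, P2ry2 and Per1 missed the threshold in all 4, Fcrls passed without M1375 or M1376, Tsc22d3 passed without M1376 or M1524, and the other 8 passed only without M1376.

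**Figure D1:**
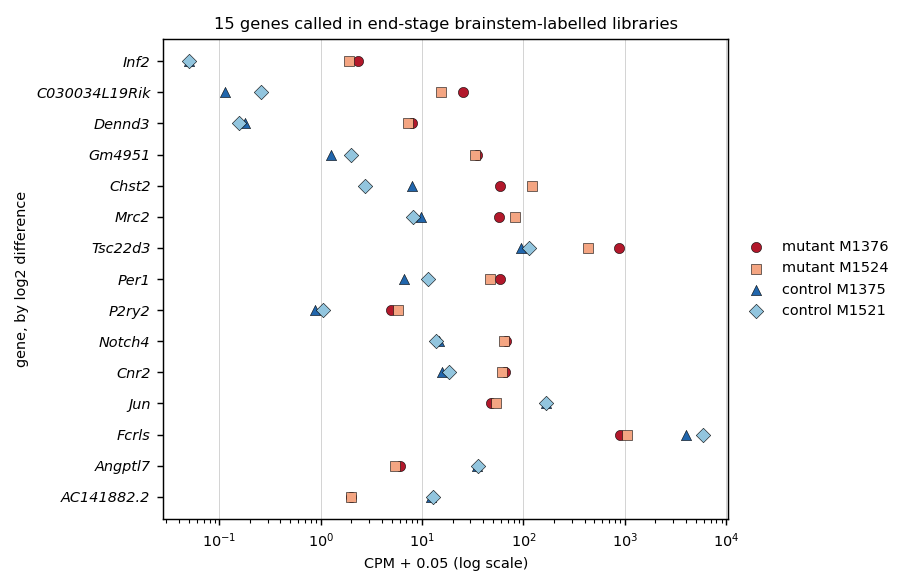
CPM (log axis, with 0.05 added so that zeros can be drawn) of the 15 genes called in the end-stage brainstem-labelled libraries, with 1 point per library and genes ordered by log2 difference. Mutants (red and orange) and controls (dark and light blue) stand apart for every gene, from Inf2 with no count in controls to AC141882.2, the lowest by log2 difference among the genes that fell.

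Fcrls (chr3:87250758-87263738, minus strand, GRCm38), a scavenger-receptor-like member of the Fc receptor family and a marker of mouse microglia, fell most clearly among abundant genes. It had 888 and 1057 CPM in mutants, against 3975 and 5864 CPM in controls, a log2 difference of -2.34 ± 0.23 (adjusted p = 0.0253). Both mutants lay below both controls by more than the spread within either group.

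Several of the genes that rose encode cell-surface receptors. Cnr2 (chr4:135895394-135920207), the cannabinoid receptor of immune cells, had 65.6 and 60.9 CPM in mutants, against 15.5 and 18.3 CPM in controls (log2 difference 1.90 ± 0.20, adjusted p = 0.0253). P2ry2 (chr7:100996568-101012866), a receptor for extracellular ATP and UTP, had 4.92 and 5.71 CPM in mutants, against 0.822 and 1 CPM in controls (2.53 ± 0.32, adjusted p = 0.0334). For both genes the replicates lay close together and the groups far apart. Mrc2 (chr11:105292643-105351139), an endocytic receptor for collagen, reached 57.5 and 82.6 CPM in mutants, against 9.68 and 8.05 CPM in controls (2.98 ± 0.32, adjusted p = 0.0253). Notch4 (chr17:34564268-34588503), a Notch receptor best known from endothelium, had 67.9 and 64.6 CPM in mutants, against 14.5 and 13.8 CPM in controls (2.23 ± 0.23, adjusted p = 0.0253). The endothelial and pericyte markers Cldn5, Tek, Ly6c1 and Vtn were at 0 in all 4 libraries. All 13 markers of that list summed to 75.7 and 82 CPM in mutants and to 61.2 and 64.1 CPM in controls, mostly from Pecam1, which microglia also express. Of the rest, Kdr, an endothelial growth factor receptor, had 11.6 and 16.7 CPM in mutants, against 5.44 and 4.79 CPM in controls (1.47 ± 0.44, adjusted p = 0.309). Flt1, its relative, had 0.801 and 3.99 CPM in mutants, against 0.506 and 0.421 CPM in controls (2.36 ± 1.05, adjusted p = 0.496). The part of endothelial cells in the Notch4 difference was not tested.

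Genes for enzymes and intracellular proteins also rose. Chst2 (chr9:95399292-95406722), a carbohydrate sulfotransferase, had 59.2 and 120 CPM in mutants, against 7.84 and 2.68 CPM in controls (4.10 ± 0.51, adjusted p = 0.0312). Inf2 (chr12:112588784-112615557), a formin that assembles actin filaments, had 40 and 33 counts in mutants, against 0 counts in both controls. Its level was at least 23.9-fold higher in mutants, taking 3 counts over the control group as the limit (adjusted p = 0.0253). Dennd3 (chr15:73512560-73572242), which activates a Rab protein of membrane traffic, had 7.84 and 7.2 CPM in mutants, against 0.127 and 0.105 CPM in controls, where each library held 2 counts (5.93 ± 0.66, adjusted p = 0.0253). Both genes were near the limit of detection in controls.

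The regulators that rose were Per1 and Tsc22d3. Per1 (chr11:69095217-69109960), a repressor of the circadian clock, had 58.9 and 46.5 CPM in mutants, against 6.58 and 11.5 CPM in controls (2.54 ± 0.31, adjusted p = 0.0312). Tsc22d3 (chrX:140539528-140600659), which encodes the glucocorticoid-induced leucine zipper protein, had 869 and 436 CPM in mutants, against 93.6 and 114 CPM in controls (2.65 ± 0.33, adjusted p = 0.0334). The mutants differed from each other in Tsc22d3 by more than the controls did, and still did not reach down to them.

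Jun (chr4:95049034-95052222, minus strand), a subunit of the transcription factor AP-1, fell. It had 48.1 and 54 CPM in mutants, against 168 and 165 CPM in controls (-1.71 ± 0.20, adjusted p = 0.0253). Angptl7 (chr4:148495183-148500460), a secreted angiopoietin-like protein, had 5.95 and 5.37 CPM in mutants, against 34.5 and 35.7 CPM in controls (-2.63 ± 0.30, adjusted p = 0.0253). The long non-coding RNA AC141882.2 had 1.95 and 1.94 CPM in mutants, against 12.2 and 12.7 CPM in controls (-2.67 ± 0.30, adjusted p = 0.0253). Within each group these 3 genes varied little. Angptl7 lies on the opposite strand within Mtor, and whether the counting used strand is not given, so reads of the pair cannot be told apart.

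The remaining 2 called genes fall outside the rule for named genes and were chosen after their values were seen. The predicted gene Gm4951 had 34.6 and 32.9 CPM in mutants, against 1.2 and 1.95 CPM in controls (4.40 ± 0.50, adjusted p = 0.0253). A pseudogene on the same strand, Gm5970, overlaps it and held 64 counts over the 4 libraries, beside 1254 for Gm4951. C030034L19Rik had 25 and 15.2 CPM in mutants, against 0.0633 and 0.21 CPM in controls (7.06 ± 0.90, adjusted p = 0.0334). It overlaps Zfp704 on the opposite strand, so its reads are uncertain in the same way as those of Angptl7.

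Other genes had separated groups but missed the adjusted threshold. Pvt1, a long non-coding RNA next to Myc, had 18.4 and 21.7 CPM in mutants, against 6.01 and 4.47 CPM in controls (1.94 ± 0.27, adjusted p = 0.0581). Xdh, which breaks down purines, had 9.16 and 10.1 CPM in mutants, against 0 and 0.316 CPM in controls (5.76 ± 0.84, adjusted p = 0.0724). Among genes lower in mutants, none of which passed, were P2rx1, an ATP-gated channel (11.3 and 11 CPM in mutants, against 30.2 and 62.2 CPM in controls; adjusted p = 0.123), and Tnfrsf17, a receptor of the TNF family (5.89 and 8.92 CPM in mutants, against 32.6 and 49.4 CPM in controls; adjusted p = 0.122). Duoxa1, Tmem44 and Pygl had log2 differences of -3.38 ± 0.57, -1.20 ± 0.21 and -2.82 ± 0.52 (adjusted p = 0.125, 0.132 and 0.152).

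Gene lists were read against all genes tested, of which 19.3% had both mutants above both controls and 21% had both mutants below both controls. Over all tested genes the median log2 difference was -0.02. In the plot of log2 differences by list, the interferon response list stood farthest from that value.

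**Figure D2:**
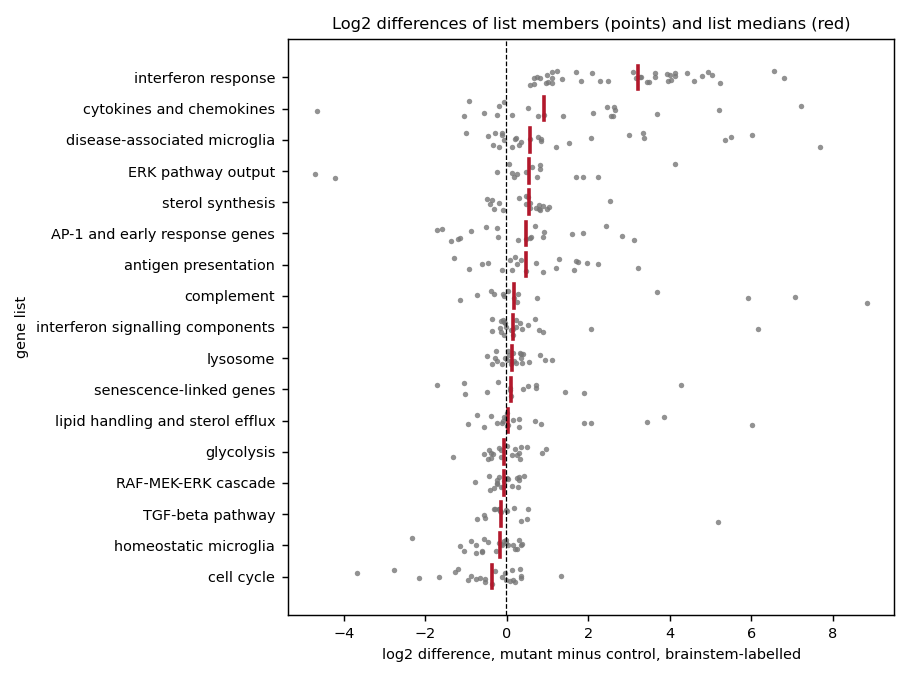
Log2 difference, mutant minus control, of each tested member (grey points) of 17 gene lists in brainstem-labelled libraries, with the median of each list in red and the median of all tested genes as a dashed line at -0.02. The interferon response median is 3.23, and the other medians lie between -0.37 and 0.91.

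The interferon response list holds genes that cells switch on after type I interferon. Of its 40 members, all tested, 35 had both mutants above both controls, none had both below, and the median log2 difference was 3.23. None passed the adjusted edgeR threshold, while 31 were higher at an unadjusted p below 0.05 and none lower. DESeq2 called 12 of the 40 higher, and limma-voom called none. The summed level of the list was 1123 and 3017 CPM in mutants, against 492 and 594 CPM in controls. Mutant M1524 was above mutant M1376 for 39 of 40 members, compared with 7511 of 15224 genes overall. Each mutant nevertheless stood above the controls on its own, with M1376 above both controls for 35 members and M1524 for 40, where 31.7% and 31.9% of all genes did so. The median without M1524 was 1.53.

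The members with the lowest p were Ifi204, Ifit1, Slfn5 and Ifi44, and Irgm1, the next, was added after its values were seen. Ifi204, a nuclear sensor of DNA, had 22.1 and 61.2 CPM in mutants, against 2.4 and 2.32 CPM in controls (4.14 ± 0.63, adjusted p = 0.0802). Ifit1, which binds foreign RNA, had 11.5 and 35.6 CPM in mutants, against 0.253 and 1.63 CPM in controls (4.60 ± 0.91, adjusted p = 0.169). For both genes M1524 was above M1376, and both mutants exceeded both controls. Slfn5, a Schlafen family member, had 14.6 and 29.8 CPM in mutants, against 1.77 and 1 CPM in controls (4.01 ± 0.84, adjusted p = 0.199). Ifi44, an interferon-induced protein, had 4.92 and 34.5 CPM in mutants, against 0 and 0.316 CPM in controls (6.80 ± 1.47, adjusted p = 0.204), so M1524 was again the higher mutant. Irgm1, a GTPase of cell-autonomous immunity, had 117 and 162 CPM in mutants, against 71.5 and 58.1 CPM in controls (1.11 ± 0.24, adjusted p = 0.204).

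**Figure D3:**
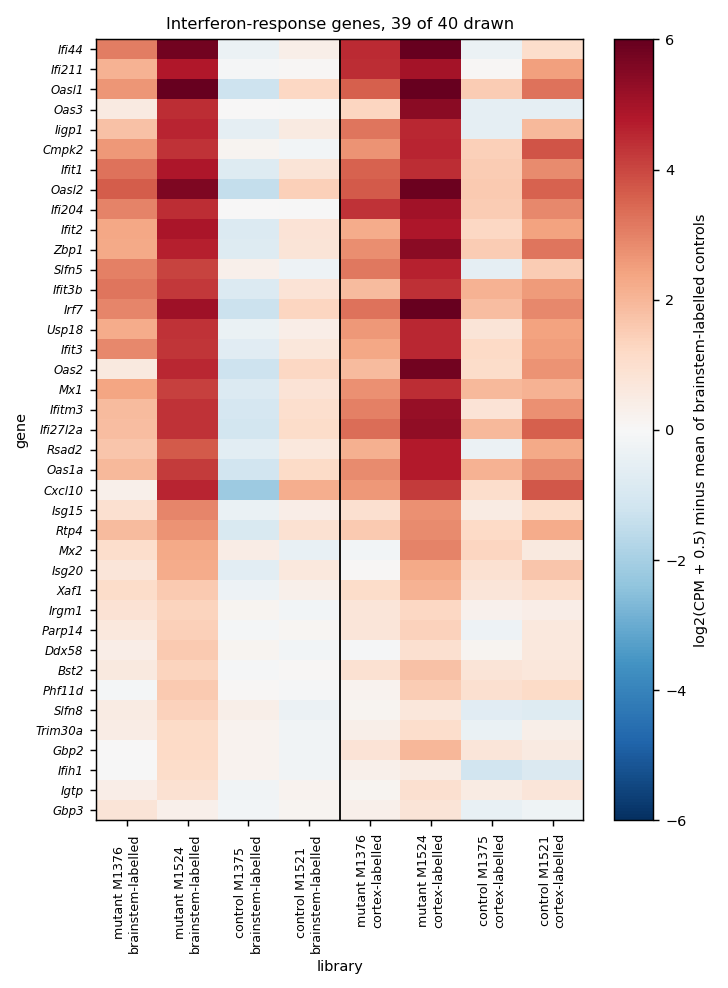
Interferon response genes (39 of 40 drawn as rows, ordered by the brainstem-labelled log2 difference) in the 4 brainstem-labelled libraries (left of the line) and the 4 cortex-labelled libraries of the same mice, as log2(CPM + 0.5) minus the mean of the brainstem-labelled controls. Mutant M1524 is the darkest column in both regions, mutant M1376 lies mostly between it and the controls on the brainstem side, and 35 of all 40 genes have both brainstem-labelled mutants above both brainstem-labelled controls.

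The promoters of interferon response genes are known to carry an interferon-stimulated response element, and the list was therefore searched for its core letters, GAAA followed by any 2 bases and GAAA again, on both strands of the RefSeq window from 250 bases before to 50 bases after the gene start (GRCm38.p6). The letters occurred in 20 of the 29 members with a window (69%), compared with 1079 of 27025 windows of all genes (3.99%). That share follows from the choice of the list and uses no mutant or control value, so it does not bear on the genotype difference. Ifi204 had no window, and the window of Irf7, another member, held no match. The letters occurred in 0 of the 10 called genes that had a window. The windows of 3 of the members described above and of Stat2, which is described below, are shown because they hold such letters, with matches in capitals (TTTC and TTTC where the match is on the other strand).
Ifit1, chr19:34640639-34640938, plus strand: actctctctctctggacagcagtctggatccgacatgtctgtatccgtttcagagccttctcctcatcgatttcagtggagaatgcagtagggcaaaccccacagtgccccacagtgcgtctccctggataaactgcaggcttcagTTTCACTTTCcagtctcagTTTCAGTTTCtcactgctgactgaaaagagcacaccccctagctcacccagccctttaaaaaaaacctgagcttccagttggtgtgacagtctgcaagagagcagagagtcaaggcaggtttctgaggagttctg
Slfn5, chr11:82951852-82952151, plus strand: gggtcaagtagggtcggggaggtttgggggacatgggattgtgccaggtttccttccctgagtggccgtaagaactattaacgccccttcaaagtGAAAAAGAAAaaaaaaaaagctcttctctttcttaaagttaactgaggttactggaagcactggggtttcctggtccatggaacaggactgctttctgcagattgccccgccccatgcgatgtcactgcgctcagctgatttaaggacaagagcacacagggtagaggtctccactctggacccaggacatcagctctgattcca
Irgm1, chr11:48871371-48871670, minus strand: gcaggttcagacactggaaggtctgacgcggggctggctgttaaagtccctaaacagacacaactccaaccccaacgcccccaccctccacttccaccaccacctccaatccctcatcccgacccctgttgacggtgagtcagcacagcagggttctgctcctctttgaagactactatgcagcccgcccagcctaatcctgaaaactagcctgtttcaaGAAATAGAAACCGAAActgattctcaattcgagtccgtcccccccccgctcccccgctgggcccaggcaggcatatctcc
Stat2, chr10:128270248-128270547, plus strand: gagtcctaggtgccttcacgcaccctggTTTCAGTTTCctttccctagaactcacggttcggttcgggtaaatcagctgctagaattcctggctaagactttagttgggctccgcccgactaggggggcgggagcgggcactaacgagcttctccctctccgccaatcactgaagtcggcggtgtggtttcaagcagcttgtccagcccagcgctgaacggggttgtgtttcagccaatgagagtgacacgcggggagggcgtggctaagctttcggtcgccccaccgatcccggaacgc

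The first match lay 104 bases before the start in Ifit1, 155 bases before it in Slfn5, 30 bases before it in Irgm1 and 222 bases before it in Stat2. Ifit1 held a second match 85 bases before the start, and the second match of Irgm1, 24 bases before it, overlaps the first. A match is a description of these letters and not evidence that a factor binds there.

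The components that make or carry the interferon signal had smaller differences than its targets. Of 23 tested of 25, none passed the adjusted edgeR threshold, 3 were higher at an unadjusted p below 0.05 and none lower, 6 had separated groups with mutants higher and 2 with mutants lower, and the median log2 difference was 0.14 (-0.05 without control M1375, 0.00 without M1524, 0.23 without M1376 and 0.28 without control M1521). DESeq2 called 2 of them higher, and limma-voom called none. Stat2, a transcription factor of the interferon-activated complex, had 63.1 and 93.8 CPM in mutants, against 23.3 and 14.5 CPM in controls (2.06 ± 0.43, adjusted p = 0.199). Irf9, the DNA-binding partner in the same complex, had 146 and 177 CPM in mutants, against 72.5 and 115 CPM in controls (0.78 ± 0.25, adjusted p = 0.349). Cgas, a sensor of cytosolic DNA, had 35.3 and 36.7 CPM in mutants, against 19.2 and 19.8 CPM in controls (0.88 ± 0.21, adjusted p = 0.221). The receptor gene Ifnar1 had 95.2 and 97.7 CPM in mutants, against 81.6 and 84.3 CPM in controls, and Ifnb1 was counted only in mutant M1524, at 1.11 CPM.

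Of the 24 homeostatic microglia genes, all tested, Fcrls fell and none rose by edgeR, while DESeq2 called 4 lower and limma-voom 1 lower. Both mutants lay below both controls for 10 members and above them for 4, 7 were lower at an unadjusted p below 0.05 and none higher, and the median log2 difference was -0.17 (-0.33 without M1524, -0.27 without control M1375 and -0.11 without M1376). P2ry12, the ADP receptor of surveying microglia, had 5573 and 5805 CPM in mutants, against 9058 and 6594 CPM in controls (-0.46 ± 0.29, adjusted p = 0.638). P2ry13, a related ADP receptor, had 1554 and 1973 CPM in mutants, against 2610 and 3316 CPM in controls (-0.75 ± 0.20, adjusted p = 0.247). Both purinergic receptors were below the controls in both mutants. Crybb1, a crystallin expressed in maturing microglia, had 201 and 261 CPM in mutants, against 375 and 588 CPM in controls (-1.06 ± 0.27, adjusted p = 0.231). Gpr34, a lysophosphatidylserine receptor, had 1676 and 1798 CPM in mutants, against 3306 and 3147 CPM in controls (-0.89 ± 0.26, adjusted p = 0.298).

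Together with Fcrls, P2ry13, Crybb1 and Gpr34, the genes Cx3cr1, described above, Sparc and Cst3 were the 7 lower at an unadjusted p below 0.05. Because Cx3cr1 carries the driver, which control M1375 lacked, its difference cannot be told apart from that of driver genotype. Sparc, a matrix protein, had 3647 and 5150 CPM in mutants, against 5929 and 7414 CPM in controls, and Cst3, a protease inhibitor, had 17320 and 33823 CPM in mutants, against 41955 and 44443 CPM in controls, both named after their values were seen. Tmem119 overlapped between the groups. It had 6217 and 11969 CPM in mutants, against 6887 and 8829 CPM in controls (0.21 ± 0.35, adjusted p = 0.9). Sall1, a transcription factor that maintains microglial identity, had 392 and 425 CPM in mutants, against 476 and 502 CPM in controls (-0.26 ± 0.16, adjusted p = 0.638). In these bulk samples, fewer cells of a type and less RNA per cell cannot be told apart.

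The 27 disease-associated microglia genes, all tested, gave no adjusted call, with 11 members above the controls in both mutants and 2 below, 9 higher and 1 lower at an unadjusted p below 0.05, and a median log2 difference of 0.58. DESeq2 called 7 higher and 1 lower, and limma-voom called none. Apoe, the lipid carrier that leads this state, had 3027 and 6232 CPM in mutants, against 188 and 712 CPM in controls (3.36 ± 0.61, adjusted p = 0.152). Axl, a receptor that takes up dying cells, had 110 and 472 CPM in mutants, against 1.71 and 10.9 CPM in controls (5.51 ± 1.08, adjusted p = 0.169). For both genes the M1524 value was the highest and the groups did not overlap. Clec7a, a receptor for fungal glucans, had 9.39 and 63 CPM in mutants, against 4.68 and 2.47 CPM in controls (3.35 ± 0.80, adjusted p = 0.221). Itgax, an integrin subunit, had 8.13 and 44.6 CPM in mutants, against 1.71 and 4.84 CPM in controls (2.99 ± 0.93, adjusted p = 0.331).

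Spp1, the secreted phosphoprotein osteopontin, had 9.73 and 242 CPM in mutants, against 0.759 and 0.474 CPM in controls (7.68 ± 1.76, adjusted p = 0.211). Its value in M1524 stood far above that in M1376. Lpl, lipoprotein lipase, had 19.6 and 24.6 CPM in mutants, against 7.21 and 3.42 CPM in controls (2.06 ± 0.51, adjusted p = 0.225). Gpnmb, a membrane glycoprotein of foamy macrophages, was counted at 0.572 and 0.443 CPM in mutants, against 0 in both controls. The sensor Trem2, in contrast, had 1656 and 2087 CPM in mutants, against 1860 and 2874 CPM in controls (-0.34 ± 0.23, adjusted p = 0.674). The list median was 0.06 without M1524 and 0.88 without M1376.

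AP-1 and early response genes had differences in both directions. Of 21 tested of 24, Jun fell and none rose, 9 had both mutants above both controls and 7 below, and 6 were higher and 6 lower at an unadjusted p below 0.05 (median log2 difference 0.48). DESeq2 called 2 higher and 5 lower, and limma-voom called 1 lower. Jund, a sister subunit of Jun, had 46.5 and 49.3 CPM in mutants, against 95.6 and 126 CPM in controls (-1.21 ± 0.22, adjusted p = 0.146). Ier3, an early gene linked to cell survival, had 8.53 and 7.92 CPM in mutants, against 17.8 and 31.7 CPM in controls (-1.59 ± 0.32, adjusted p = 0.179). Egr1, a zinc-finger early gene, ran the other way, with 14.1 and 19.2 CPM in mutants, against 3.35 and 5.63 CPM in controls (1.88 ± 0.36, adjusted p = 0.169). Jun, Jund and Ier3 were thus lowest in the mutants, and Egr1 was highest there.

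The Jun window is shown because Jun passed the test. AP-1-like letters, TGANNTCA, which read the same on both strands, occurred in it 45 bases before the start and just after the start (capitals). They occurred in 6 of 20 windows of this list (30%), compared with 4304 of 27025 windows of all genes (15.9%). The share of the list uses no mutant or control value, so it does not bear on the genotype difference. Of the 10 called genes that had a window, 3 held such letters, Jun among them, compared with 1230 of 10131 tested genes (12.1%). That difference was not tested.
Jun, chr4:95052173-95052472, minus strand: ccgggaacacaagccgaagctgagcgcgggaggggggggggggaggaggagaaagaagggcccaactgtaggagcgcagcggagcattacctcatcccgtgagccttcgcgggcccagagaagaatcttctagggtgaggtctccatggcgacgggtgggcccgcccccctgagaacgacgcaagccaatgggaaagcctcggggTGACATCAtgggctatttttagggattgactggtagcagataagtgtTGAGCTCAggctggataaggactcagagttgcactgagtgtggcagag

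Genes known as outputs of ERK signalling gave no adjusted call among 16 tested of 20. Both mutants were above both controls for 7 and below for 2, 4 were higher and 2 lower at an unadjusted p below 0.05, and the median log2 difference was 0.54 (0.21 without control M1375). DESeq2 called 3 higher, and limma-voom called none. Etv4, an ETS transcription factor induced by ERK, had 9.39 and 12.9 CPM in mutants, against 0 and 1.21 CPM in controls (4.14 ± 1.16, adjusted p = 0.277). Spred1, a feedback inhibitor of RAS signalling, had 91 and 91.3 CPM in mutants, against 59 and 45.1 CPM in controls (0.81 ± 0.22, adjusted p = 0.248). Egr1, which is on this list as well as among the early genes above, had a log2 difference of 1.88 ± 0.36 (adjusted p = 0.169). Spred3, a relative of Spred1, was near the limit of detection, at 0.114 and 0 CPM in mutants and 1.64 and 0.737 CPM in controls. Dusp6 and Ccnd1 overlapped between the groups. Dusp6, the ERK phosphatase, had 944 and 1104 CPM in mutants, against 994 and 893 CPM in controls (0.12 ± 0.20, adjusted p = 0.901), and Ccnd1, cyclin D1, had 53.3 and 54.7 CPM in mutants, against 55.5 and 49 CPM in controls (0.05 ± 0.34, adjusted p = 0.981). Etv5 had a log2 difference of 0.61 ± 0.32 (adjusted p = 0.559), and Spry2 did not pass the filter on low counts.

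The kinases and adaptors of the cascade itself had a median log2 difference of -0.07 over 20 members, with no adjusted call by edgeR, DESeq2 or limma-voom, none higher at an unadjusted p below 0.05 and 2 lower. Map2k1, which encodes MEK1 and was among those lower, had 182 and 213 CPM in mutants, against 257 and 279 CPM in controls (-0.44 ± 0.17, adjusted p = 0.43).

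Sterol synthesis genes, the targets of the SREBP transcription factors, had both mutants above both controls for 12 of 20 members and below for 2, with 6 higher and none lower at an unadjusted p below 0.05, a median log2 difference of 0.54 and no adjusted call by edgeR, DESeq2 or limma-voom. Cyp51, which demethylates lanosterol, had 14.2 and 23.7 CPM in mutants, against 11.9 and 6.52 CPM in controls (1.04 ± 0.35, adjusted p = 0.363). Srebf1, one of the SREBP genes, had 75.7 and 81.3 CPM in mutants, against 37.8 and 57.2 CPM in controls (0.72 ± 0.26, adjusted p = 0.389). Scap, the escort of SREBP proteins, had a log2 difference of 0.57 ± 0.21 (adjusted p = 0.405). In the cortex-labelled libraries the median of the list was 0.04.

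Lipid handling and sterol efflux genes had a median log2 difference of 0.02 over 22 tested of 24 (-0.06 without M1376, 0.10 without control M1521, and 0.18 without control M1375 or M1524), with 5 members separated upward, 4 downward and no adjusted edgeR call. At an unadjusted p below 0.05, 5 were higher and 1 lower. DESeq2 called 1 higher, and limma-voom called none. Dgat2, which makes triglyceride, had 11.3 and 8.97 CPM in mutants, against 0.569 and 1.26 CPM in controls (3.44 ± 0.70, adjusted p = 0.188). Lipa, the lysosomal acid lipase, had 101 and 126 CPM in mutants, against 165 and 208 CPM in controls (-0.72 ± 0.23, adjusted p = 0.342). Lysosome genes had 7 of 24 members separated upward and 3 downward, with 4 higher and none lower at an unadjusted p below 0.05, a median of 0.13 (-0.04 without control M1375, 0.04 without M1524, 0.27 without M1376 and 0.53 without control M1521) and no adjusted edgeR call. DESeq2 called 2 of them higher, and limma-voom called none. Psap, the precursor of the saposins, had 7347 and 8045 CPM in mutants, against 3277 and 4798 CPM in controls (0.93 ± 0.23, adjusted p = 0.223), and Man2b1, a lysosomal mannosidase, had 1728 and 2009 CPM in mutants, against 959 and 1171 CPM in controls (0.81 ± 0.23, adjusted p = 0.292).

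Among cytokines and chemokines, 21 tested of 25, none passed the adjusted edgeR threshold, 7 were higher and 2 lower at an unadjusted p below 0.05, and the median log2 difference was 0.91. DESeq2 called 3 higher, and limma-voom called none. Il1b, the interleukin-1 beta gene, had 6.18 and 16.2 CPM in mutants, against 2.85 and 0.737 CPM in controls (2.66 ± 0.63, adjusted p = 0.221). Cxcl13, a B-cell attractant, had 2.23 and 414 CPM in mutants, against 0.253 and 2.42 CPM in controls (7.22 ± 2.27, adjusted p = 0.332), so its difference was carried by M1524. Il1a, the interleukin-1 alpha gene, ran lower, with 52.8 and 88 CPM in mutants, against 112 and 180 CPM in controls (-1.05 ± 0.37, adjusted p = 0.378). The list median was -0.15 without M1524 and 1.68 without control M1521.

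Of 15 complement genes tested of 18, 4 were separated upward and 4 downward, 3 were higher and 2 lower at an unadjusted p below 0.05, and none passed the adjusted edgeR threshold (median 0.18, or -0.05 without M1524), while DESeq2 called 3 higher and 1 lower and limma-voom none. C4b, a classical pathway component, had 28.6 and 438 CPM in mutants, against 0 and 3.31 CPM in controls (7.07 ± 1.69, adjusted p = 0.221), and C3, the central component, had 0.744 and 6.43 CPM in mutants, against 0 in both controls. The anaphylatoxin receptor gene C3ar1 was lower, at 122 and 99.3 CPM in mutants and 287 and 202 CPM in controls (-1.14 ± 0.26, adjusted p = 0.204). Antigen presentation genes had 7 of 21 members separated upward and 2 downward, 6 higher and 1 lower at an unadjusted p below 0.05, a median of 0.46 (0.08 without M1524) and no adjusted edgeR call. DESeq2 called 1 of them higher, and limma-voom called none. Nlrc5, which drives class I genes, had 5.61 and 18.3 CPM in mutants, against 2.53 and 2.58 CPM in controls (2.23 ± 0.63, adjusted p = 0.286). Tap1, the peptide transporter, had 106 and 185 CPM in mutants, against 53.8 and 72.5 CPM in controls (1.20 ± 0.42, adjusted p = 0.377). Cd86, a co-stimulatory ligand, was lower, at 191 and 262 CPM in mutants and 350 and 335 CPM in controls (-0.60 ± 0.20, adjusted p = 0.359).

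The remaining lists gave no adjusted call by edgeR, DESeq2 or limma-voom. Cell cycle genes had a median log2 difference of -0.37 over 25 members (-0.03 without control M1375, -0.13 without M1376 and -0.67 without M1524), with 1 separated upward, 4 downward and none at an unadjusted p below 0.05 in either direction. The E2F factor E2f1 had 1.14 and 1.22 CPM in mutants, against 2.97 and 2.47 CPM in controls (-1.20 ± 0.58, adjusted p = 0.531). Glycolysis genes had a median of -0.07 over 20 members (-0.36 without M1524, -0.19 without control M1375, 0.20 without M1376 and 0.22 without control M1521), with none at an unadjusted p below 0.05. Of 16 TGF-beta pathway genes, none was higher and 1 lower at that level (median -0.15, or 0.02 without control M1375 and -0.03 without M1376). This was Smad3, a signal transducer of the pathway, with 51.7 and 58.2 CPM in mutants, against 80.5 and 101 CPM in controls (-0.73 ± 0.19, adjusted p = 0.237). Senescence-linked genes had a median of 0.11 over 15 members (-0.11 without control M1375, -0.07 without M1524, 0.50 without M1376 and 0.45 without control M1521), with 1 higher and 2 lower at an unadjusted p below 0.05. Mmp12, a macrophage elastase, was the 1 higher, at 3.72 and 4.49 CPM in mutants and 0.443 and 0 CPM in controls (4.28 ± 1.02, adjusted p = 0.221). Cdkn1a, the cell cycle inhibitor p21, was among the 2 lower, at 6.64 and 16.2 CPM in mutants and 17.1 and 29.5 CPM in controls (-1.03 ± 0.45, adjusted p = 0.483).

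The genotype difference was set beside that in the cortex-labelled libraries of the same mice, where 355 genes passed the adjusted edgeR threshold (2.33%), 200 higher (1.31%) and 155 lower (1.02%). The test of the difference between regions passed for 0 genes by edgeR, with 785 at an unadjusted p below 0.05 (5.16%), while limma-voom called 0 and DESeq2 called 104. With mouse as a replicate block, which the shared animals warrant, edgeR called 33 genes (0.217%), with 19 differences more positive in brainstem-labelled libraries (0.125%) and 14 more negative (0.092%). Among the 15 genes called above these were Notch4 and Tsc22d3. The block gives each mouse its own term, which leaves fewer residual degrees of freedom than the main fit. The pairing of libraries on which the block relies was not tested. In the fit without the block, the lowest interaction values belonged to Notch4 and Dennd3 among the called genes. Notch4 had 13.1 and 10.5 CPM in cortex-labelled mutants, against 14.6 and 17.8 CPM in cortex-labelled controls, and its log2 difference exceeded that of the cortex by 2.69 ± 0.32 (edgeR adjusted p = 0.105 for the interaction, and 0.0273 with the replicate block). Dennd3 had 1.79 and 2.78 CPM in cortex-labelled mutants, against 2.26 and 1.89 CPM in cortex-labelled controls, and exceeded the cortex difference by 5.79 ± 0.83 (edgeR adjusted p = 0.113 for the interaction, and 0.0551 with the replicate block). Tsc22d3 exceeded it by 2.09 ± 0.45 (edgeR adjusted p = 0.362 for the interaction, and 0.0295 with the replicate block). Fcrls had 657 and 659 CPM in cortex-labelled mutants, against 2591 and 2197 CPM in cortex-labelled controls, so it was lower in mutants of both regions.

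**Figure D4:**
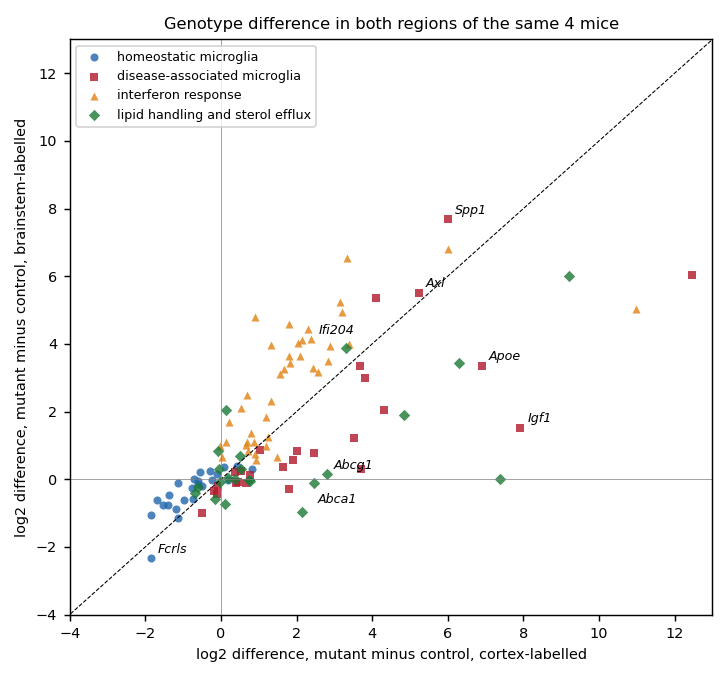
Log2 difference, mutant minus control, in brainstem-labelled libraries (vertical axis) against that in cortex-labelled libraries of the same 4 mice (horizontal axis) for the tested members of 4 lists, with the line of equality dashed. Interferon response members lie mostly above the line (medians 3.23 and 1.51), and disease-associated members mostly below it (medians 0.58 and 1.91).

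The median differences of disease-associated and lipid genes were smaller in the brainstem (0.58 and 0.02) than in the cortex (1.91 and 0.51) libraries, and none of their members passed the adjusted interaction test by edgeR without the replicate block. With the block, 3 disease-associated members (Apoe, Lgals3 and Lyz2) and 2 lipid members (Abca1 and Abcg1) passed, each with a more negative difference in the brainstem-labelled libraries. Apoe had 98095 and 104393 CPM in cortex-labelled mutants, against 673 and 1017 CPM in cortex-labelled controls, a log2 difference of 6.90 beside 3.36 in the brainstem-labelled libraries (edgeR adjusted p = 0.392 for the interaction, and 0.0274 with the replicate block). The efflux transporter genes Abcg1 and Abca1, named after their values were seen, were close to level in the brainstem-labelled libraries. Abcg1 had 168 and 105 CPM in brainstem-labelled mutants, against 131 and 116 CPM in their controls (0.14 ± 0.23, adjusted p = 0.894), and 166 and 179 CPM in cortex-labelled mutants, against 23.9 and 25.5 CPM in theirs (edgeR adjusted p = 0.107 for the interaction, and 0.0162 with the replicate block). The brainstem-labelled controls were thus nearer to the mutants than to the cortex-labelled controls. Abca1 had 341 and 204 CPM in brainstem-labelled mutants, against 406 and 182 CPM in their controls (-0.11 ± 0.39, adjusted p = 0.964), with an edgeR adjusted p of 0.37 for the interaction and of 0.0158 with the replicate block. With the block, Atf3 of the early response genes and Plaur of the senescence-linked genes also passed with a more negative difference, and Oasl2 of the interferon response genes passed narrowly with a more positive one, all 3 named after their values were seen. In the edgeR fit without the block, interferon response members had 2 of 40 below an unadjusted interaction p of 0.05. With the block most members were below that level, compared with 1085 of 15224 genes. Among them were Ifit1 (edgeR unadjusted p = 0.000607), Ifit2 (0.000388) and Ifit3 (0.00012), named after their values were seen. Of the members below that level, only Oas3 had a more negative difference in the brainstem-labelled libraries. The list summed to 1278 and 3915 CPM in cortex-labelled mutants, against 769 and 1227 CPM in cortex-labelled controls.

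Markers of other cells were counted in the same libraries. Of 10 neutrophil markers 6 were at 0 in all 4 libraries, and Cd3d, Cd3e and Cd3g of T cells were at 0 in all 4. Monocyte markers, 11 in all, summed to 33 and 176 CPM in mutants and to 29.2 and 35.4 CPM in controls. The library M1524, which was the highest in interferon response genes, Spp1 and Cxcl13, was thus also the highest in this sum. The sum came mostly from Ms4a4c, Ms4a6c, Plac8 and Fn1, while Ly6c2 and Chil3 had at most 1 count in any library. Fn1 had 7.84 and 60.4 CPM in mutants, against 0.19 and 0.21 CPM in controls (7.35 ± 1.64, edgeR adjusted p = 0.204). Of 7 monocyte markers tested, 2 had both mutants above both controls (28.6%, compared with 19.3% of all tested genes) and none below. DESeq2 called 1 of them higher, and limma-voom called none. The part of monocytes in these results was not tested. Border-associated macrophage markers, 11 in all, summed to 255 and 279 CPM in mutants and to 280 and 309 CPM in controls, mostly from Stab1. B and plasma cell markers summed to 488 and 573 CPM in mutants and to 635 and 954 CPM in controls, mostly from Ighm. DESeq2 called 1 of the 3 tested B and plasma cell markers lower, and limma-voom called none. The 12 markers of T and NK cells summed to 20.1 and 29.2 CPM in mutants and to 9.04 and 15.4 CPM in controls, mostly from Klrd1.

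Neural markers gave ranges of 9.53 to 11.2 CPM for neurons in mutants and 4.47 to 15.2 CPM in controls, and of 2.71 to 3.83 CPM for oligodendrocyte precursors in mutants and 0.19 to 0.421 CPM in controls. The precursor sums rested on 67 and 49 counts in mutants and on 3 and 8 counts in controls. Cspg4 held 17 and 41 of the mutant counts, and Gpr17, Bcan and Neu4 were at 0 in all 4 libraries. DESeq2 called 1 of the 4 tested precursor markers higher, and limma-voom called none. Oligodendrocyte markers summed to 178 and 255 CPM in mutants and to 151 and 226 CPM in controls, with Mog and Cldn11 at 0 in all 4. Astrocyte markers summed to 762 and 276 CPM in mutants and to 216 and 1533 CPM in controls, and nearly all of it was Slc1a3. Gfap, the intermediate filament of astrocytes, had 11 and 27 counts in mutants, against 0 counts in both controls, at least 12.3-fold higher with 3 counts over the control group as the limit (edgeR adjusted p = 0.227), and it was the 1 member of the astrocyte list that DESeq2 called. Cortex tissue markers summed to 7.44 and 8.59 CPM in mutants and to 5.88 and 3.1 CPM in controls. In the cortex-labelled libraries of the same mice they summed to 3.81 and 1.39 CPM in mutants and to 1.51 and 5.52 CPM in controls. Most of each sum was Cux2.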

How the data were processed

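Whole-number read counts for each gene were deposited in 1 table, and the authors had not normalised them. The submitters' processing notes name FastQC, Subread, edgeR and the build mm10, with no version or role for any of them. The sources used here do not give the annotation, whether counting used strand, or how multi-mapping reads were handled. Per the labels' protocols, RNA was amplified over 12 cycles with SMART-Seq chemistry and libraries were made over 8 cycles. Of 55487 gene identifiers, 55394 took their symbols and GRCm38 coordinates from GENCODE M21. The 93 others held 0.00123% of counts.

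Groups follow the sample records. The test was edgeR 4.0.16 under R 4.3.3 (filterByExpr, TMM, glmQLFit) in 1 model over the 8 end-stage libraries in 4 groups, which left 15224 genes and 4 residual degrees of freedom. The 2-month libraries stayed out because the mouse numbers in their titles and descriptions conflict. Their use, DESeq2 1.42.0, limma-voom (limma 3.58.1), other filters, other size factors, leaving out each library and mouse as a block were alternatives. Each standard error is the size of the log2 difference over the root of its F value. CPM used TMM-scaled library sizes. A count of 0 allows up to 3 counts, 0.158 to 0.19 CPM per brainstem-labelled library, a limit of counting error alone, because the PCR copies carry no molecular identifiers. On data simulated for the genotype comparison with 15224 genes, the test recovered 94% of genes raised 4-fold and 88% of genes lowered to 0.25, with 8 false calls. The changed genes were drawn from the more abundant ones. Each gene was given the spread of the trend over genes, and neither shared mice nor different control genotypes were simulated. These shares therefore do not carry over to the measured genes, and a gene that was not called need not be unchanged.

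The 2 libraries of a mouse come from 1 animal. Their deviations from the group means correlated at 0.137 in controls and 0.375 in mutants. With 2 mice in a group both mice give the same value, so the pairing rests on the mouse numbers in the labels and was not tested. Promoter windows come from RefSeq (GRCm38.p6).

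The members, gene lists and tests were chosen with earlier results of these data known. Named genes are all called genes outside predicted and Riken names and a fixed set of ERK and microglial genes. Genes with separated groups and a mean log2 CPM of at least 1 gave the 10 of lowest p that were higher in mutants and the 10 of lowest p that were lower. Each list gave its 4 members with the lowest p (for cell markers, the 2 with the lowest p and the 2 with the highest CPM). Other genes, and the counts of members above both controls in 1 mutant, were added after their values were seen. Some genes of the lists are counted in them but not reported by name here.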

Additional observations from a re-analysis of the deposited data

How the results depend on the processing

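The count of 15 genes called in brainstem-labelled libraries was 15 with DESeq2 size factors and 15 where genes below a mean log2 CPM of 1 were left out, and limma-voom gave 10. It was 357 with DESeq2, 595 with no low-count filter, 4 (3 of them among the 15) with the 4 brainstem-labelled libraries alone, 1 with all 20 libraries by sample record and 25 with all 20 by mouse number. Leaving out 1 library gave 0 to 25. With mouse as a replicate block by duplicateCorrelation in limma-voom it was 11. The count for the difference between regions was 0 and became 104 with DESeq2, 251 with no filter, 1 with the filter at a mean log2 CPM of 1, 14 with all 20 by mouse number and 33 with mouse as a replicate block. The causes were not tested. Where an arm kept 1 library, that library was assumed to vary like the other groups.

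Without 1 library at a time, differences that changed sign were -0.53 to 0.58 for Abca1, -0.23 to 0.44 for Abcg1, -0.67 to 0.89 for Braf, -0.34 to 0.61 for Tmem119, -0.62 to 0.07 for Trem2 and -0.75 to 0.47 for Lyz2, none of which was called. Dusp6 ran from -0.00 to 0.23, Ifnb1 from 0.00 to 7.13 and Sgk1 from -1.54 to 0.00. Braf was 0.09 with limma-voom, with and without mouse as a replicate block. List medians ranged from 1.53 to 4.33 for interferon response, 0.06 to 0.88 for disease-associated and -0.15 to 1.68 for cytokine genes, each lowest without mutant M1524. Medians of other lists that changed sign ran from -0.05 to 0.28 for interferon signalling, -0.06 to 0.18 for lipid, -0.04 to 0.53 for lysosome, -0.05 to 0.24 for complement, -0.11 to 0.50 for senescence-linked, -0.18 to 0.02 for TGF-beta and -0.36 to 0.22 for glycolysis genes.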

Other observations

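Glucocorticoid-induced genes were looked at after Tsc22d3 and Per1 had been seen among the called genes, so their list was chosen after seeing the data. Of 19 tested of 21, 2 rose and none fell. The 2 were Tsc22d3 and Per1, which prompted the list and are included in all its counts. Both mutants were above both controls for 8 (42.1%, compared with 19.3% of all tested genes) and below for 1 (5.26%, compared with 21%). At an unadjusted edgeR p below 0.05, 9 were higher (47.4%, compared with 5.52%) and 1 lower (5.26%, compared with 4.67%). The median log2 difference was 0.43. DESeq2 called 5 higher and limma-voom 2, where they called 1.6% and 0.046% of all tested genes higher. Fkbp5, a co-chaperone of the glucocorticoid receptor, had 874 and 383 CPM in mutants, against 84.2 and 122 CPM in controls (log2 difference 2.61 ± 0.44, edgeR adjusted p = 0.122). Ddit4, an inhibitor of mTORC1 signalling, had 380 and 167 CPM in mutants, against 6.14 and 29.2 CPM in controls (3.95 ± 0.87, edgeR adjusted p = 0.204). The kinase gene Sgk1 had 380 and 772 CPM in mutants, against 599 and 1612 CPM in controls. Mutant M1524 was above mutant M1376 for 6 of the 19 members, compared with 39 of 40 interferon response members. Of 17 tested circadian clock genes, a list also chosen after seeing the data, Per1 rose, none fell, DESeq2 called 2 higher and limma-voom 1, and the median log2 difference was 0.14.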
